A study of Mus musculus with 12 samples.

Results

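The comparison described here is that of otic vesicles labelled Dlx5-null with wild-type otic vesicles of the mouse at E10.5, a stage in days of embryonic development. Its members are the 4 arrays whose titles give E10.5, otic vesicle and the mutant or wild-type genotype, of 12 arrays in all. Each group holds 2 arrays, and per the labels each array carries RNA of a separate biological pool of 4 to 8 vesicles. The titles number the arrays of a group 1 and 2, but both descriptions of the second E10.5 samples read replicate 1. The wild-type group has the genotype "Wild-type" and the other group the genotype "Dlx5-null"; the allele, strain and sex of the embryos were not stated in the labels read here, and no agent was given to the embryos. All vesicles were dissected by hand and held in dispase at 1 mg/ml for 10 to 15 minutes on ice to loosen the attached mesenchyme. The series also holds 4 vesicle arrays at E10 (2 wild type, 2 labelled Dlx5-null) and 4 arrays of 2B1, an otic vesicle cell line that received GFP with or without Dlx5 and was then kept for 4 days at 37 °C in the absence of gamma-interferon. Per the title of the series, the aim was to find genes that act downstream of Dlx5.

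Dlx5 encodes a homeodomain transcription factor of the distal-less family. In the early inner ear it is made in the dorsal wall of the otic vesicle, the epithelial sac from which the semicircular canals, the endolymphatic duct and the cochlea form, and mice that lack it have defective canals. Bone morphogenetic proteins (BMPs) and Wnt proteins are secreted signals that pattern the dorsal vesicle, and both are held in check by secreted antagonists, among them the Dkk proteins for Wnt and the chordin-like proteins for BMP. Neurons of the cochleovestibular ganglion delaminate from the ventral wall at these stages. RNA was measured on Affymetrix arrays, on which a gene is read by 1 or more sets of short probes, and all levels below are log2 values after robust multi-array averaging (RMA), so that a difference of 1 is a 2-fold difference. Differences are given as labelled null minus wild type.

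The arrays of E10.5 were close to each other, with correlations of 0.992 to 0.9967 across probe sets, and their values spread by an SD of 2.46 and 2.47 in wild type against 2.45 and 2.38 in the labelled null. Labelled-null replicate 2, with the SD of 2.38, thus has the narrowest range. At E10 the arrays with the same replicate number were nearer to each other across genotype (r = 0.9912 and 0.9931) than the 2 arrays of 1 genotype were (r = 0.9815 and 0.9826). This spread enters the standard errors below, because all 8 vesicle arrays share 1 estimate of it. The X-linked transcript Xist had levels of 9.17 and 9.01 in wild type against 8.91 and 9.01 in the labelled null at E10.5, against 5.07 and 9.72 and then 4.98 and 9.36 at E10. The Y-linked Eif2s3y had 3.21 and 3.45 in wild type against 4.82 and 5.04 in the labelled null at E10.5, too dim to be tested, so that the sex of the pools and the genotype cannot be told apart for it. Of 14 otic vesicle marker genes, 11 were analysed here and all 11 passed the filter on dim genes, among them Oc90, which makes the otoconial matrix protein, at 13.28, 13.28, 13.24 and 13.14, and Sox10 at 12.13, 12.05, 12.32 and 12.16. In 3 of the 11 (Cdh1, Gata3 and Pax8) both labelled-null values lay below both wild-type values, with means at least 0.5 apart. That is 27.3%, against 2.69% of all genes, and the median difference of the 11 was -0.09.

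The probe set of Dlx5 itself gave higher values in the labelled null. The 2 wild-type arrays had levels of 6.12 and 6.11, and the 2 labelled-null arrays both had 7.97. The groups lay 3.62-fold apart, a difference of 1.86 with a standard error (SE) of 0.24, which did not pass limma's test (adjusted p = 0.195). At E10 the levels were 6.20 and 6.30 in wild type against 7.27 and 8.02 in the labelled null. No label says whether this probe set lies inside or outside the deleted stretch, so that it checks no label, and the word "labelled" is kept with every direction below. The other tested genes of the family differed by 0.07 (Dlx1), 0.14 (Dlx3) and 0.20 (Dlx4), with adjusted p = 1 for each. The Dlx3 values did not overlap, at 5.90 and 5.95 in wild type against 6.08 and 6.04 in the labelled null. Dlx6, the neighbour of Dlx5 on chromosome 6 with which it is transcribed as a pair, was too dim to be tested, at 4.91 and 5.05 in wild type against 5.16 and 4.86 in the labelled null. Dlx2 was also too dim.

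Dkk1, which encodes a secreted antagonist of Wnt signalling, fell in the labelled-null vesicles and was the only gene to pass limma's test. Its levels were 6.98 and 7.17 in wild type against 4.55 and 4.48 in the labelled null. The 2 arrays of each group were close together, and the groups did not overlap. The difference was -2.56 ± 0.15 (SE, n = 2 and 2), a level 5.9-fold lower (limma with Benjamini-Hochberg adjustment, adjusted p = 0.00641). A second probe set of Dkk1 differed by -1.72. Of 13645 genes tested, Dkk1 was thus the 1 gene called, or 0.00733%, and 3 genes had an adjusted p under 0.1. The call rests on all 4 arrays: without wild-type replicate 1 or 2 the adjusted p of Dkk1 was 0.162 and 0.256, and without labelled-null replicate 1 or 2 it was 0.211 and 0.247, with differences of -2.66 to -2.47. Without either labelled-null array of E10, 4 genes were called (Dkk1, Dlx5, Irs4 and Pof1b). With only the 4 E10.5 arrays in the fit, 37 genes were called and Dkk1 had an adjusted p of 0.00889.

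The 250 bases upstream of the start of Dkk1 are printed because it is the gene that passed, and those of Vwc2, a gene described next, because they hold a match to the homeodomain core. Both are from the RefSeq promoter table for GRCm38.p6, 5′ to 3′ on the strand of the gene. The Dkk1 window lies on chromosome 19, minus strand, at chr19:30549497-30549746, and the Vwc2 window on chromosome 11, plus strand, at chr11:11113766-11114015. Capitals mark a match to TAATT on either strand.
Dkk1: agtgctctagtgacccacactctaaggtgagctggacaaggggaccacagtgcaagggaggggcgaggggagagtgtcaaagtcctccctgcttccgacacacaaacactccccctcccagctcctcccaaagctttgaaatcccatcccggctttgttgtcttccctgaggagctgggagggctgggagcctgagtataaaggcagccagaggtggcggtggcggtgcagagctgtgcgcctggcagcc
Vwc2: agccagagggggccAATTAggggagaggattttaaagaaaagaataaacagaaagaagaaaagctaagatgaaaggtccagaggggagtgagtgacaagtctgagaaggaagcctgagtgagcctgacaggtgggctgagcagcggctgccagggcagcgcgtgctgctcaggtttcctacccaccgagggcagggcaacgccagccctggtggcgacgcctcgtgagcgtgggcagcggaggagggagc
The longer motif TAATTA, which reads the same on both strands and contains TAATT, was in none of the 8 windows that the table holds for the 12 genes with the smallest p among the higher ones nor in any of the 12 windows that the table holds for 11 of the 12 lower ones (Itgb6 has 2), and in 4.84% of all 32851 windows of the table. TAATT was in 2 of the 12 windows of the lower genes (Vwc2, 236 bases before the start, and Itgb6, 228 bases before it), in 0 of the 8 windows of the higher genes and in 25% of all windows. A match is a description of the letters and no site.

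The tests at an unadjusted p under 0.05 took in 106 genes that were higher in the labelled null (0.777% of those tested). They also took in 297 that were lower (2.18%), Dkk1 among them. Together these 403 of 13645 genes are a smaller share than a threshold of 0.05 would be expected to take in if no gene differed. A second count asked whether both labelled-null values lay on 1 side of both wild-type values with means at least 0.5 apart: 107 genes were higher by that rule (0.784%) and 367 lower (2.69%). Below, such genes are called separated. Over all genes tested 5578 differences were above 0 and 7920 (58%) below, with a median of -0.04. The excess of lower genes depended on the setting. With the Eif2s3y level as a covariate it turned round, to 416 higher and 249 lower genes at an unadjusted p under 0.05. Eif2s3y was itself higher in the labelled null at E10.5. At E10 it had 7.04 and 3.96 in wild type against 6.50 and 6.17 in the labelled null. That setting therefore cannot tell sex and genotype apart at E10.5. After a further quantile normalization the counts at an unadjusted p under 0.05 were 204 higher and 260 lower, and without labelled-null replicate 2 they were 90 and 96. Without wild-type replicate 1 they were 42 and 131, and without wild-type replicate 2 they were 44 and 111.

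**Figure D1:**
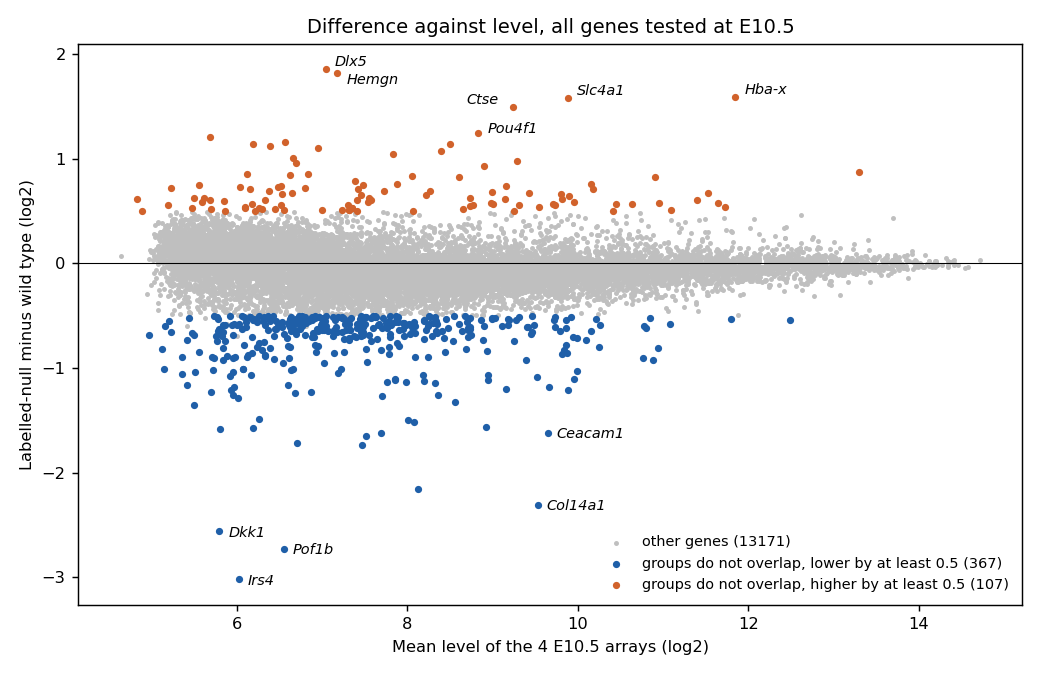
Each point is 1 of the 13645 genes tested, with its mean log2 level over the 4 E10.5 arrays on the x axis and the difference of labelled null minus wild type (log2) on the y axis; coloured points are the 107 genes separated upward and the 367 separated downward. The lowest points are Irs4 (-3.02), Pof1b (-2.73) and Dkk1 (-2.56), and the highest are Dlx5 (1.86) and Hemgn (1.82).

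Among the separated genes, the 12 with the smallest p in each direction are described next; apart from Dkk1 none passed the adjusted threshold, with adjusted p of 0.0831 to 0.4 in the lower genes and 0.195 to 0.82 in the higher ones. Irs4 had the widest gap. It encodes an insulin receptor substrate, an adaptor that links insulin and IGF receptors to kinases in the cell, and lies on the X chromosome. Its levels were 7.65 and 7.42 in wild type against 4.57 and 4.46 in the labelled null, a difference of -3.02 ± 0.29 (SE), or 8.11-fold (adjusted p = 0.0831). A dimmer probe set of Irs4 had 4.87, 4.93, 4.89 and 4.93 and did not separate the groups. Of 14 insulin and IGF genes tested, Irs4 and Irs1 were separated, both downward (14.3% against 2.69% of all genes), and 10 of the 14 had lower values (58% of all genes did). The list median was -0.24, or -0.145 without labelled-null replicate 2, -0.159 after quantile normalization and -0.067 with the mean of all probe sets. Irs1, a related adaptor, had 9.81 and 9.76 in wild type against 9.12 and 9.11 in the labelled null (-0.67 ± 0.18, adjusted p = 1). Gene lists in this report were chosen with earlier results of these data known. Their shares also count genes with the widest gaps, such as Irs4, Pof1b and Dkk1. Those shares are therefore descriptions and no independent test.

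Pof1b, an actin-binding protein of epithelial junctions that is also X-linked, had levels of 7.72 and 8.11 in wild type against 5.12 and 5.25 in the labelled null. That difference of -2.73 ± 0.32 (SE) was 6.63-fold (adjusted p = 0.125). The epithelial junction and keratin list as a whole leaned the same way: of 22 genes tested 20 had lower values (58% of all genes did), 6 were separated downward (27.3% against 2.69% of all genes) and none upward, and the median was -0.27. After quantile normalization 3 were separated. Krt23, an acidic keratin, stood at 8.69 and 8.83 against 7.5 and 7.03 (-1.5 ± 0.25, adjusted p = 0.4). Krt7 was at 8.14 and 8.13 against 7.73 and 7.19 (-0.68 ± 0.52, adjusted p = 1), and the adhesion molecule Cdh1 (E-cadherin) at 8.36 and 8.35 against 7.93 and 7.66 (-0.56 ± 0.15, adjusted p = 1). Krt19 and the desmosome gene Dsp were the other two separated members. Labelled-null replicate 2 had the lower value of the pair for Krt23, Krt7 and Cdh1, and without it the median of the list was -0.16. Epcam, an epithelial adhesion molecule among the otic markers, had 8.13 and 8.07 in wild type against 8.23 and 8.40 in the labelled null.

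Eci3 encodes a peroxisomal enoyl-CoA isomerase of fatty acid oxidation. Its levels were 8.33 and 8.35 in wild type against 6.63 and 6.75 in the labelled null, a difference of -1.65 ± 0.17 (SE; adjusted p = 0.0831). The wild-type values were almost equal, and both lay above the labelled-null ones, which the choice of the gene required. Col5a3, a chain of the fibrillar type V collagen, had 8.43 and 8.25 against 6.77 and 6.43 (-1.74 ± 0.20, adjusted p = 0.125), with a dim second probe set at -0.02. Col14a1, a collagen that associates with fibrils, was at 10.74 and 10.63 against 8.51 and 8.24. Its SE of 0.62 was wide (-2.31, adjusted p = 1) because its E10 arrays spread from 6.05 to 8.38. Other probe sets of Col14a1 differed by -1.35 and, where dim, -0.10. Of 26 collagen chains tested, 19 had lower values (58% of all genes did) and 6 were separated downward (23.1% against 2.69% of all genes), with none separated upward. The median was -0.14, and without wild-type replicate 1 or 2 it was -0.09 and -0.28, and -0.08 without labelled-null replicate 2. Col11a1, a fibrillar collagen of cartilage and the inner ear, was at 9.63 and 9.61 against 9.07 and 8.68, and the basement membrane chain Col4a5 at 7.76 and 7.73 against 7.42 and 6.67. Dmkn, a secreted protein of stratified epithelia, was also among the widest differences, with 9.0 and 9.40 against 6.93 and 7.15 (-2.16 ± 0.50, adjusted p = 0.82).

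The remaining genes of the lower 12 were of several kinds. Ceacam1, a cell adhesion molecule of epithelia, had 10.44 and 10.47 in wild type against 8.90 and 8.77 in the labelled null (-1.62 ± 0.27, adjusted p = 0.4), and 6 of its 7 other probe sets differed by -2.66 to -1.25, the seventh by -0.33. Anxa2, a calcium-dependent membrane-binding protein, stood at 8.52 and 8.59 against 7.48 and 7.36 (-1.14 ± 0.18), although 2 dim probe sets had differences of 0.15 and 0.01. Itgb6, an epithelial integrin subunit, had 6.13 and 6.18 against 5.23 and 5.30 (-0.89 ± 0.14), and 0.25 on a dimmer probe set. Within each of these genes the 2 arrays of a group differed by far less than the gap between groups, which the rule for choosing them favoured. Rpa3, a subunit of the single-strand DNA-binding complex of replication, had a mean of 10.51 ± 0.01 in wild type against 9.41 ± 0.04 in the labelled null (SD, n = 2; -1.10 ± 0.18, adjusted p = 0.376). In the RefSeq gene order of chromosome 6, 6 protein-coding genes lie between Rpa3 and Dlx5.

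**Figure D2:**
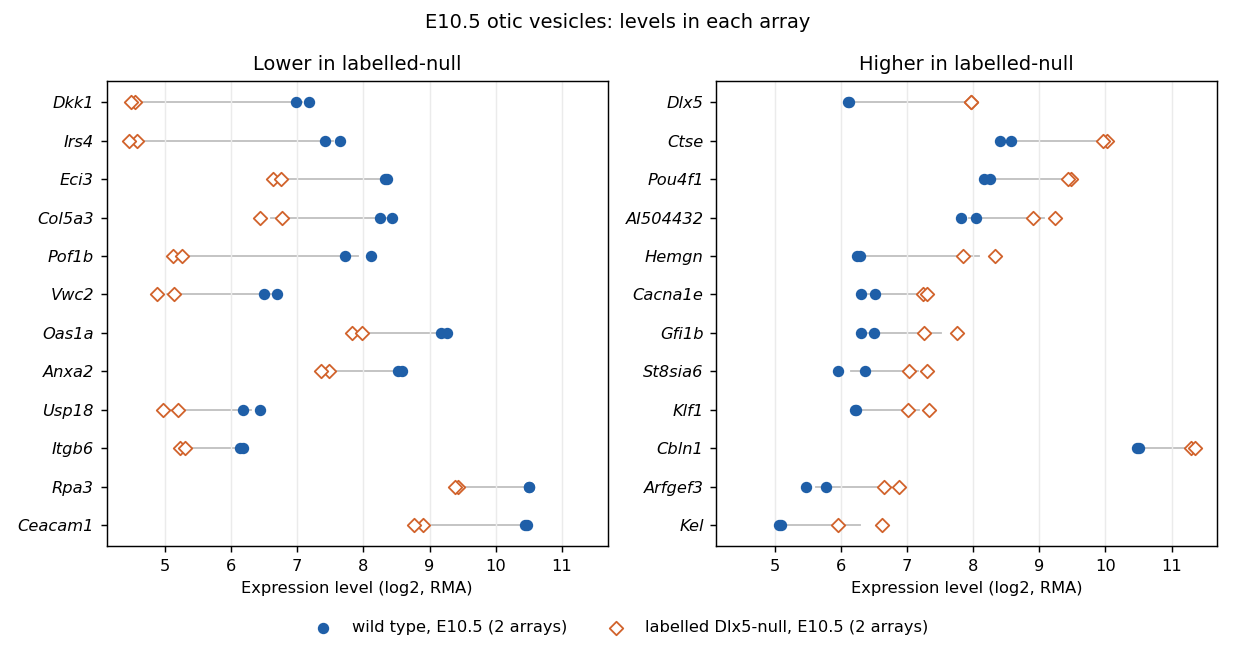
Log2 levels (x axis) of the 12 separated genes with the smallest p in each direction, with 1 point per array: filled circles are the 2 wild-type arrays and open diamonds the 2 labelled-null arrays at E10.5, and grey lines join the group means. Differences run from -3.02 to -0.89 in the left panel and from 0.83 to 1.86 in the right panel, and the groups of every gene shown are apart because that was the rule for choosing them.

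Among BMP genes the separated members were mostly lower, and none passed the test. Of 13 receptors and inhibitors tested, 10 had lower values (58% of all genes did) and 4 were separated downward (30.8% against 2.69% of all genes), or 2 with the mean of all probe sets, with a median of -0.15 that was 0.00 without labelled-null replicate 2 and -0.04 without wild-type replicate 1. Vwc2, a secreted protein with chordin-like domains that modulates BMP activity, had 6.70 and 6.49 in wild type against 5.14 and 4.88 in the labelled null (-1.59 ± 0.21, 3-fold, adjusted p = 0.195), with a dim probe set at 0.14. Bambi, a transmembrane pseudoreceptor that dampens BMP and TGF-beta signals, was at 8.90 and 8.78 against 7.59 and 7.05 (-1.52 ± 0.43, adjusted p = 1). Bmper, a BMP-binding protein of the matrix, had 10.23 and 10.35 against 9.72 and 9.46, and the secreted antagonist Fst (follistatin) 7.05 and 6.85 against 6.58 and 6.11. Among 5 BMP ligands tested, 1 was separated downward and 1 upward (20% each, against 2.69% and 0.784% of all genes). Bmp4 was lower, at 8.60 and 8.52 against 7.99 and 7.69 (-0.72 ± 0.19), and Bmp6 higher, at 8.95 and 9.06 against 9.66 and 9.35 (0.50 ± 0.37), both with an adjusted p of about 1 (0.999 and 1). Of 8 BMP response genes 7 had lower values (58% of all genes did), and 2 were separated downward (25% against 2.69% of all genes). Their list had a median of -0.23. The 2 separated ones were the homeobox genes Msx1, at 9.10 and 9.03 against 8.35 and 8.38 (-0.70 ± 0.14, adjusted p = 0.61), and Msx2, at 8.05 and 7.95 against 7.04 and 7.08 (-0.94 ± 0.35, adjusted p = 1). The 4 Id genes, direct targets of BMP signalling in many cells, differed by -0.32 to -0.22, and none was separated.

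Among the Wnt lists the separated genes were antagonists and feedback genes. None of 13 Wnt ligands tested was separated, and their median was -0.03. Of 10 antagonists tested, 3 were separated, all downward and all of the Dkk family (30% against 2.69% of all genes). Their median was -0.15; it was -0.28 without wild-type replicate 1, -0.103 without wild-type replicate 2, -0.08 with no filter on dim genes and -0.059 after quantile normalization. After Dkk1 the widest was Dkk2, at 6.45 and 6.66 in wild type against 5.41 and 5.33 in the labelled null (-1.19 ± 0.25, adjusted p = 0.711). Dkk3, a divergent member of the family, had 8.86 and 8.95 against 8.24 and 8.09 (-0.74 ± 0.55, adjusted p = 1). The 4 secreted frizzled-related genes in the list (Sfrp1, Sfrp2, Sfrp4 and Sfrp5) differed by -0.14 to 0.14. Of 11 feedback and response genes 2 were separated, both downward (18.2% against 2.69% of all genes). They were Apcdd1, a membrane-bound Wnt inhibitor, at 8.55 and 8.84 against 7.67 and 7.93 (-0.90 ± 0.17, adjusted p = 0.61), and the zinc finger gene Sp8, at 5.77 and 5.79 against 5.04 and 5.05 (-0.74 ± 0.15, adjusted p = 0.678). For Apcdd1, 2 further probe sets differed by -0.87 and -0.91 and 3 by -0.42, -0.01 and 0.09. Axin2, a gene widely used as a readout of canonical Wnt signalling, had 7.44 and 7.35 in wild type against 7.52 and 7.21 in the labelled null, so that its groups overlapped.

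The regulators of axial identity in the vesicle held separated members in the dorsal and the ventral list, all of them lower in the labelled null. Of 12 dorsal regulators tested 10 had lower values (58% of all genes did). The median of the list was -0.18, or -0.28 without labelled-null replicate 1 and -0.098 without labelled-null replicate 2. Of the 12, 2 were separated. Gbx2, a homeobox gene needed for the endolymphatic duct and canals, stood at 8.36 and 8.21 against 7.98 and 7.41 (-0.59 ± 0.38), and Zic1, a zinc finger gene, at a mean of 10.56 ± 0.08 in wild type (SD, n = 2) against 9.97 in both labelled-null arrays (-0.59 ± 0.37). Hmx3, a homeobox gene of canal development, had 6.58 and 6.70 against 6.57 and 6.15 (-0.28 ± 0.23), a gap too small to count as separated. Of 10 ventral regulators 3 were separated downward, with a median of -0.02 for the list. They were Otx2, at 6.56 and 6.57 against 5.84 and 5.51, Gata3, at 7.17 and 7.29 against 6.64 and 6.41, and Gata2, at 8.53 and 8.42 against 8.02 and 7.83. Pax8, an early otic transcription factor, had 7.81 and 7.63 against 7.21 and 6.85 (-0.69 ± 0.21). Sox2, which marks the prosensory and neurogenic domain, had 9.18 and 9.32 against 8.92 and 8.54 (-0.52 ± 0.17). All 7 had an adjusted p of 1, and 16.7% of the dorsal and 30% of the ventral genes were separated downward against 2.69% of all genes.

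Retinoic acid genes held separated members on both sides. Of 13 retinoic acid genes tested, the synthesis enzyme Aldh1a3 was separated upward, at 7.70 and 8.00 in wild type against 8.99 and 8.87 in the labelled null (1.08 ± 0.43), while its relatives Aldh1a1 (7.62 and 7.52 against 7.05 and 6.37) and Aldh1a2 (9.24 and 9.47 against 8.47 and 8.56) and the retinol dehydrogenase Rdh10 (9.25 and 9.14 against 8.62 and 8.57) were separated downward. Of the 13, 7.69% were separated upward and 23.1% downward, against 0.784% and 2.69% of all genes. The median of the list was -0.02, and a dimmer probe set of Aldh1a3 differed by 0.25. With the Eif2s3y level as a covariate the difference of Aldh1a2 turned to 0.59. Ptn, a heparin-binding growth factor, had 11.41 and 11.28 against 10.49 and 10.58 (-0.81 ± 0.17, adjusted p = 0.651), with other probe sets at -0.73 and, where dim, 0.19. None of 14 FGF ligands, receptors and feedback genes was separated, and their median was 0.00. Of 12 hedgehog genes the co-receptors Gas1 (10.08 and 10.19 against 9.64 and 9.55) and Cdon (9.34 and 9.23 against 8.95 and 8.58) were separated downward (16.7% against 2.69% of all genes), each with an adjusted p of 1, and neither Ptch1 (-0.25) nor Gli1 (-0.17), the usual response genes, was. With the mean of all probe sets, and after quantile normalization, 0 hedgehog genes were separated.

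Genes of the interferon response were mostly lower, with gaps in 4 of 16 tested (25% against 2.69% of all genes). Lower values were found in 13 of the 16 (58% of all genes had them). The median was -0.19, or -0.063 with no filter on dim genes, -0.11 with the mean of all probe sets and -0.117 after quantile normalization. At an unadjusted p under 0.05 in limma's test, 1 member was higher and 3 were lower. The median difference of the same genes at E10 was 0.042. Oas1a, an enzyme that senses double-stranded RNA, had 9.27 and 9.18 in wild type against 7.82 and 7.98 in the labelled null (-1.33 ± 0.20, adjusted p = 0.373). Usp18, a protease that removes the ubiquitin-like ISG15, was at 6.43 and 6.18 against 4.97 and 5.19 (-1.23 ± 0.19, adjusted p = 0.376). Ifitm3, a membrane protein, stood at 8.52 and 8.29 against 7.19 and 7.41, and the antiviral enzyme Rsad2 at 7.37 and 7.41 against 6.82 and 6.66. A further 2 probe sets of Rsad2 were dim and differed by 0.15 and 0.29. The transcription factors Irf1 and Irf9 differed by -0.12 and -0.27 and were not separated. No macrophage or leukocyte marker of 9 tested was separated, and their mean level was 6.20 and 6.13 in wild type against 6.09 and 6.16 in the labelled null.

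Neuronal genes were higher for a few members. Pou4f1 (Brn3a), a POU-domain factor of sensory neurons, had levels of 8.16 and 8.26 in wild type against 9.48 and 9.44 in the labelled null, a difference of 1.25 ± 0.19 (SE), or 2.38-fold (adjusted p = 0.373). A second probe set differed by 0.63. Lhx1, a LIM homeobox gene, was at 5.76 and 5.90 against 7.26 and 6.65 (1.13 ± 0.35, adjusted p = 1). Both were the separated members among 14 regulators of otic neurogenesis (14.3% upward against 0.784% of all genes), whose median was 0.15, or 0.03 without wild-type replicate 2. Neurog1, which starts neurogenesis in the vesicle, had 6.0 and 5.88 against 5.98 and 5.90, and its target Neurod1 8.60 and 8.68 against 9.12 and 8.96. Of 23 genes of the neuronal cytoskeleton and axon, 15 had higher values (40.9% of all genes did) and 2 were separated upward (8.7% against 0.784% of all genes). They were Nefm (9.80 and 9.75 against 10.69 and 10.38) and Dcx (6.0 and 6.05 against 6.73 and 6.54). At an unadjusted p under 0.05 in limma's test, 1 member of that list was higher and 1 lower. Tubb3, a tubulin of neurons, overlapped at 11.17 and 11.12 against 11.05 and 11.15. In pools of whole vesicles fewer cells of a type and less RNA per cell cannot be told apart.

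**Figure D3:**
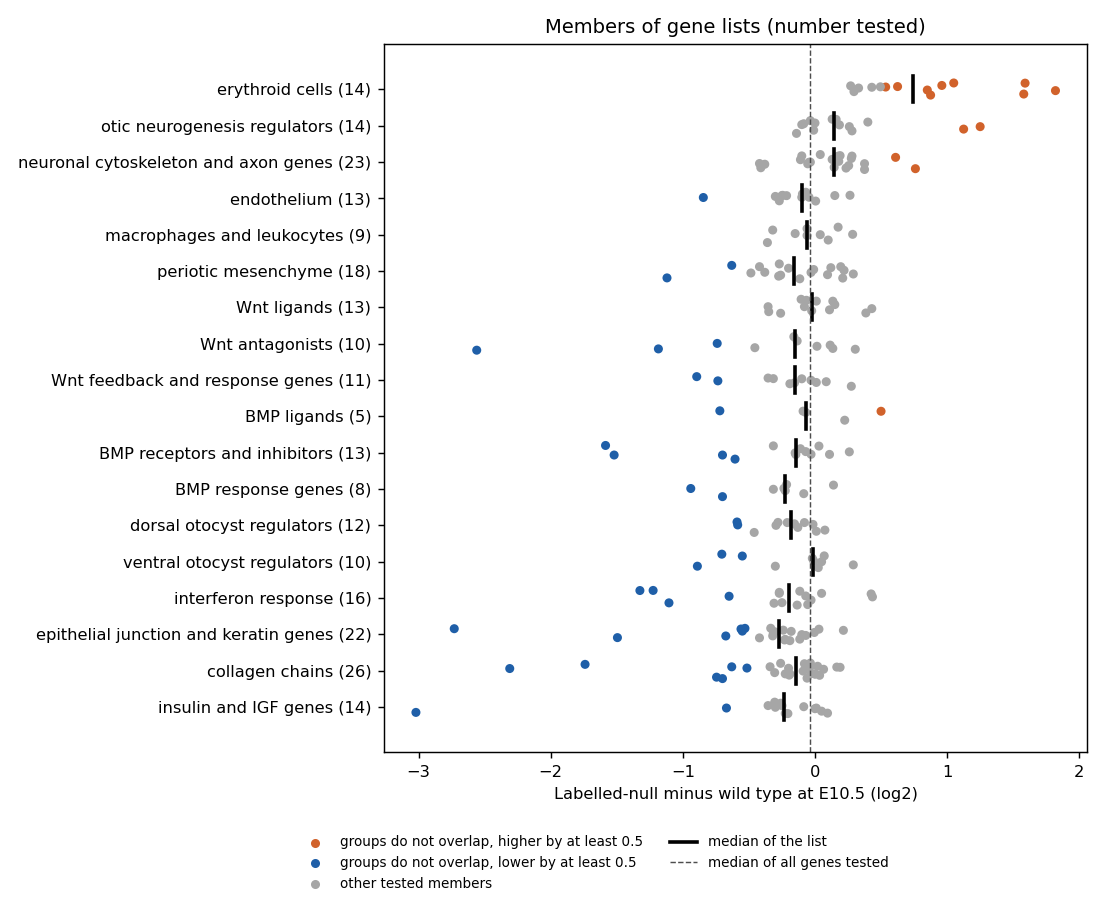
Differences of labelled null minus wild type at E10.5 (x axis, log2) of every tested member of 18 gene lists; black bars are list medians and the dashed line is the median of all genes tested (-0.04). The erythroid genes lie all to the right of 0, and the lower separated members are spread over Wnt antagonists, BMP modulators, interferon, epithelial and collagen genes.

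Red cell genes were the list with the most separated members. All 14 erythroid genes tested in the list had higher values in the labelled null, and 9 of them were separated (64.3% against 0.784% of all genes). The median difference was 0.74 (0.65 without wild-type replicate 1). Hba-a2, a globin gene outside the list, was separated downward, at 8.19 and 8.03 in wild type against 7.77 and 6.79 in the labelled null. The mean level of the list was 7.95 and 7.97 in wild type against 8.81 and 8.79 in the labelled null. Hemgn, a nuclear protein of blood progenitors, had 6.25 and 6.29 in wild type against 8.33 and 7.85 in the labelled null (1.82 ± 0.30, adjusted p = 0.376). Hba-x, the embryonic alpha-like globin, was at 11.06 and 11.04 against 12.59 and 12.69 (1.59 ± 0.61, adjusted p = 1), and Slc4a1, the anion exchanger of the red cell membrane, at 9.09 and 9.10 against 10.55 and 10.80 (1.58 ± 0.64, adjusted p = 1). The haem enzyme Alas2 had 7.38 and 7.24 against 8.51 and 8.21, and the erythroid factor Klf1 6.21 and 6.23 against 7.34 and 7.02 (0.96 ± 0.19, adjusted p = 0.61). Gfi1b, a repressor of red cell and platelet precursors, and Kel, a blood group antigen, were among the 12 higher genes too, with differences of 1.11 ± 0.20 and 1.21 ± 0.27. The wild-type arrays were close together for each of these genes, and both labelled-null arrays lay above them, which their choice required. Hba-a1 and Rhag were too dim to be tested. The part of red cell content in the other differences was not tested. At E10 the list had a median difference of 0.06, and its mean level followed the replicate number: 7.06 and 7.33 in wild type against 7.0 and 7.42 in the labelled null.

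**Figure D4:**
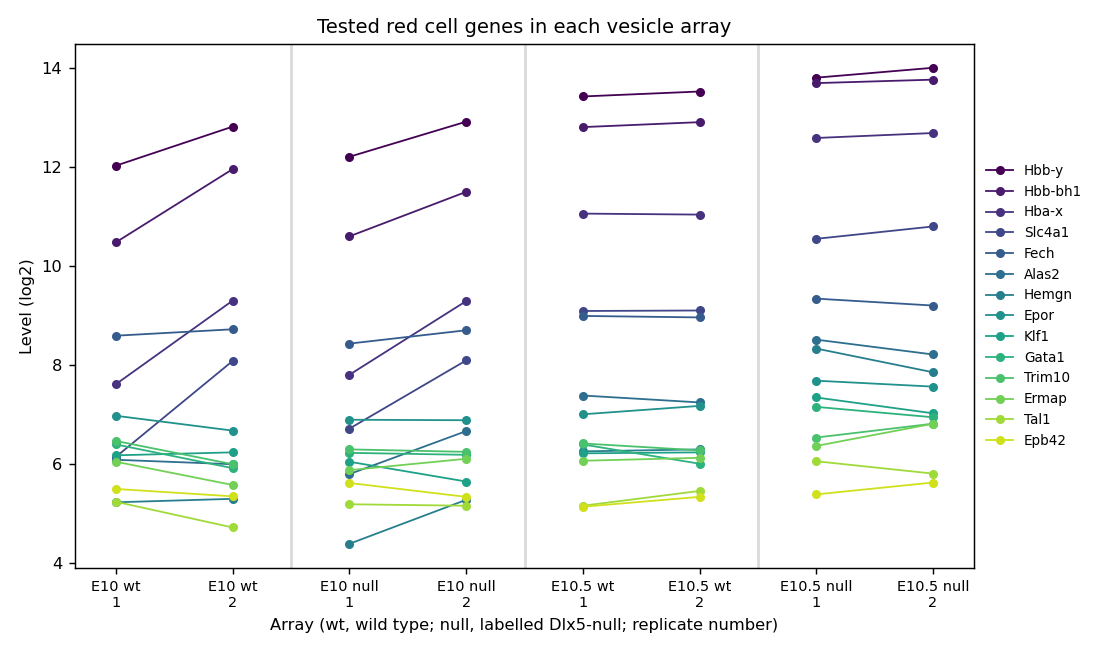
Log2 levels (y axis) of the 14 erythroid genes tested in each of the 8 vesicle arrays (x axis), with lines joining the 2 arrays of a group. In the 2 labelled-null arrays at E10.5 the mean level of the list is 8.81 and 8.79, against 7.95 and 7.97 in the wild-type arrays of that stage.

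Other cell types that a dissected vesicle could hold showed smaller gaps. Of 13 endothelial genes tested 1, Sox17, was separated downward (7.69% against 2.69% of all genes). It had 6.05 and 5.90 in wild type against 5.40 and 4.86 in the labelled null. The mean level of the list was 6.70 and 6.69 against 6.62 and 6.46. Of 18 genes of the periotic mesenchyme, Lum (8.76 and 8.75 against 7.94 and 7.33) and Col1a1 (7.35 and 7.17 against 6.61 and 6.65) were separated downward (11.1% against 2.69% of all genes). The mean level of that list was 7.19 and 7.07 against 7.03 and 6.88. Lum and Col1a1 are matrix genes, and the part of the mesenchyme in the collagen differences was not tested. Separated genes numbered 0 of 7 for hindbrain neuroepithelium, 1 of 8 for neural crest and glia (Ret, -0.56) and 1 of 9 for skeletal muscle (Myot, -1.01). Those shares were 12.5% for neural crest and glia and 11.1% for muscle, against 2.69% of all genes separated downward. Of 19 DNA replication genes 0 were separated. Of 19 mitosis genes 2 were separated upward (against 0.784% of all genes), the kinetochore genes Cenpe (0.58) and Cenpf (0.57), and 0 with the mean of all probe sets. Of 17 cholesterol synthesis genes 16 had lower values (58% of all genes did), and none was separated. The median of that list was -0.23, or -0.05 without labelled-null replicate 2.

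Of the higher genes outside these groups, Ctse, an aspartic protease that red cells also hold, had 8.58 and 8.41 in wild type against 10.02 and 9.96 in the labelled null (1.5 ± 0.23, adjusted p = 0.373), and a dimmer probe set differed by -0.28. Cbln1, a secreted synapse organiser, was at 10.51 and 10.48 against 11.29 and 11.35 (0.83 ± 0.18), and its 2 other probe sets differed by 0.87 and 0.73. Cacna1e, a voltage-gated calcium channel subunit, stood at 6.52 and 6.30 against 7.24 and 7.30 (0.86 ± 0.15), with a dim probe set at -0.03. The sialyltransferase gene St8sia6 had 6.36 and 5.96 against 7.30 and 7.03 (1.01 ± 0.19), and Arfgef3 5.48 and 5.77 against 6.88 and 6.65 (1.14 ± 0.25). AI504432, a gene known by its clone name, was at 8.05 and 7.82 against 9.24 and 8.91 (1.14 ± 0.18). For each of these 6 genes the lowest labelled-null value lay above the highest wild-type value, which their choice required. Dimmer probe sets differed by 0.26 for St8sia6, 0.45 for Arfgef3 and 0.36 for AI504432.

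The E10 arrays, which share no sample with those of E10.5, allow each gene to be read at an earlier stage. Of the 107 genes separated upward at E10.5, 79 (73.8%) also had a higher value in the labelled null at E10, and of the 367 separated downward 248 (67.6%) also had a lower one. Over all genes tested those shares were 54.4% and 51%. Among the 12 genes with the smallest p, the sign was the same at E10 for 8 of the higher and 10 of the lower genes. The difference between the stages was tested as an interaction, and no gene passed (limma, smallest adjusted p = 1, with 269 genes at an unadjusted p under 0.05). At E10 no gene passed either (smallest adjusted p = 0.0759, 451 genes at an unadjusted p under 0.05).

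Genes with a gap of the same size at both stages included Pof1b (-2.74 at E10 and -2.73 at E10.5), Msx1 (-0.70 at both), Dkk2 (-1.15 and -1.19), Apcdd1 (-1.01 and -0.90) and St8sia6 (1.00 and 1.01). Dkk1 differed by -1.75 at E10 and -2.56 at E10.5: its wild-type level was 7.05 and 6.99 at E10, as at E10.5, and its labelled-null level went from 5.36 and 5.19 to 4.55 and 4.48. Krt23 had a wider gap at E10 (-2.7) than at E10.5 (-1.5), with wild-type levels of 11.74 and 11.47 at the earlier stage. In a further set of genes the genotypes lay close together at E10, and the wild-type level at E10.5 was above all 4 of those E10 values. Eci3 had 6.42 and 6.09 in wild type against 6.35 and 6.23 in the labelled null at E10, against 8.33 and 8.35 in wild type at E10.5. Col5a3 (5.85 and 6.22, then 5.75 and 5.84), Usp18 (4.71 and 4.57, then 4.58 and 4.97) and Itgb6 (4.98 and 4.95, then 4.80 and 4.97) had such E10 levels as well. For Ctse and Hemgn the genotypes overlapped at E10, and both had higher labelled-null levels at E10.5.

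**Figure D5:**
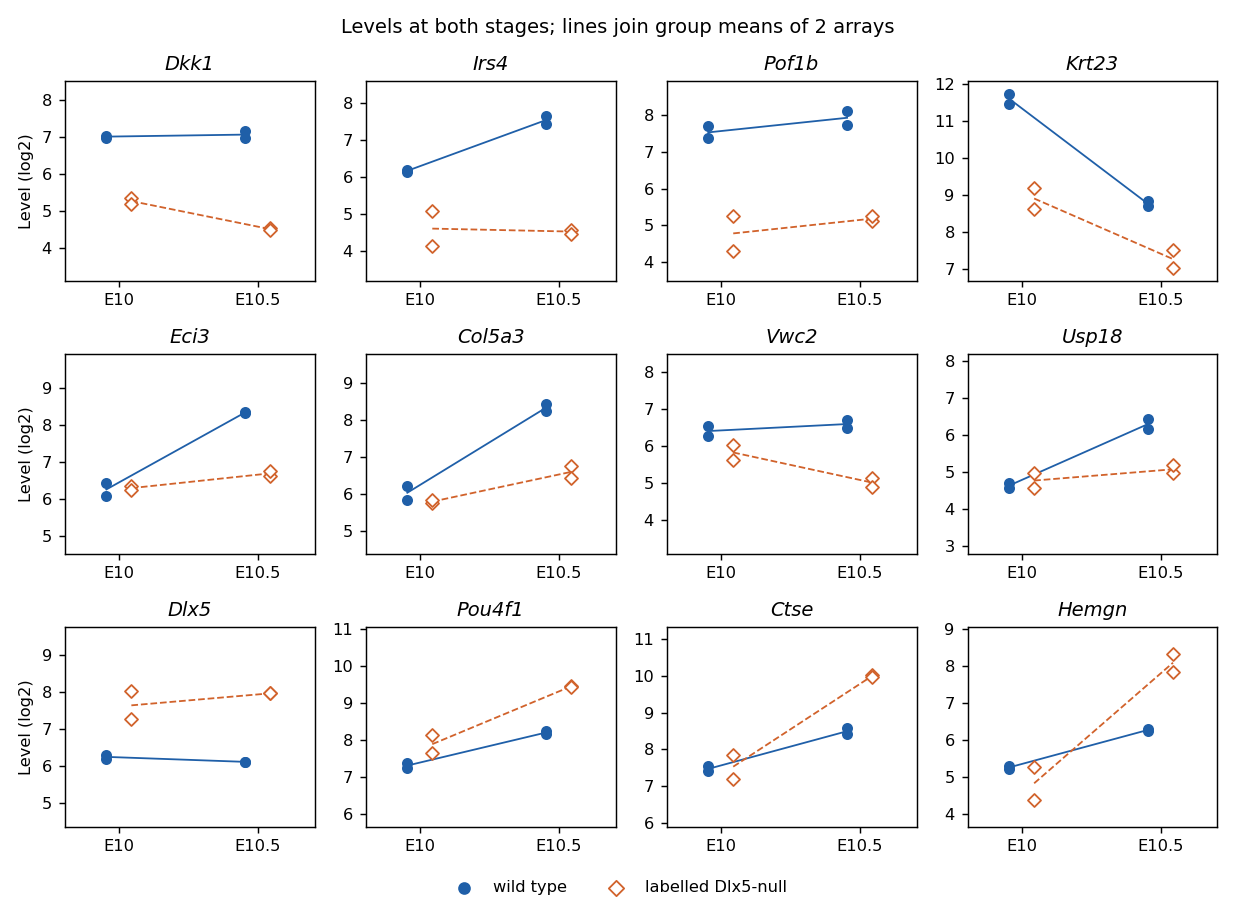
Log2 levels (y axis) of 12 genes at E10 and E10.5 (x axis), with 1 point per array and lines joining the means of 2 arrays; filled circles are wild type and open diamonds labelled Dlx5-null. Dkk1, Irs4, Pof1b and Dlx5 are apart at both stages, while Eci3, Usp18, Ctse and Hemgn overlap at E10 and are apart at E10.5.

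In 2B1 cells, which per the labels received Dlx5, the values of the same genes were set beside those of the vesicles. The cell arrays may have been normalized apart from the vesicles, so they were fitted alone, with the brightest probe set in those cells. The Dlx5 probe set was too dim to be tested there, at 5.14 and 4.80 in the arrays labelled with Dlx5 and 4.66 and 4.79 in those with the empty vector, so that these arrays do not show the added gene. Empty-vector replicate 1 stood apart, with an SD of 2.19 against 2.29 to 2.31 in the other cell arrays. No gene passed there (limma, 0 of 13636 genes, smallest adjusted p = 0.323, 1758 genes at an unadjusted p under 0.05). Of the 12 lower genes 9 were bright enough in 2B1 cells, and 7 of these had higher values with Dlx5; of the 12 higher genes 5 were bright enough, and 3 had lower values with Dlx5. Over all cell genes 56.3% were higher with Dlx5. Without empty-vector replicate 1 that share was 47.1%, and the counts were 5 of 9 and 2 of 5. Ptn was at 10.18 and 10.12 with Dlx5 and 8.76 and 9.08 with the empty vector (1.23 ± 0.18, adjusted p = 0.323), and Apcdd1 at 7.52 and 7.47 against 6.28 and 6.46 (1.13 ± 0.16, adjusted p = 0.323). Pof1b had 6.47 and 6.41 against 5.01 and 5.97 (0.95 ± 0.29), Bmp4 7.48 and 7.36 against 6.32 and 6.99 (0.77 ± 0.23) and Usp18 9.29 and 9.21 against 8.25 and 8.86 (0.70 ± 0.22), each with an adjusted p of 0.377. Without empty-vector replicate 1 the differences were 1.07 for Ptn, 1.04 for Apcdd1, 0.47 for Pof1b, 0.43 for Bmp4 and 0.39 for Usp18. Other genes that were lower in the labelled-null vesicles were also lower with Dlx5 in the cells, among them Col1a1 (-0.52, adjusted p = 0.377), Dkk3 (-0.51, adjusted p = 0.39), Ret (-0.32, adjusted p = 0.44) and Msx2 (-0.25, adjusted p = 0.514). Dkk1 was at 5.16 and 4.93 against 4.68 and 5.0, so that its values overlapped.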

How the data were processed

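The 12 samples were each read on 1 Affymetrix mouse array. The authors deposited log2 values of 45101 probe sets, made with RMA and Affymetrix Expression Console per the submitters' processing notes; no version or setting was found in the labels, nor any signal over background, so precision is limited by the 2 arrays per group. Titles gave groups and replicate numbers; both descriptions of the second E10.5 samples read replicate 1. Probe sets with 1 gene (34958; 932 had several, 9211 none) gave 18194 genes, with symbols updated by identifier (34754) or accession (1), the others kept (203). The brightest set over the 8 vesicle arrays stood for a gene, and the lowest 25% were left out. limma 3.58.1 in R 4.3.3 fitted 4 group means (4 residual degrees of freedom) with Benjamini-Hochberg adjustment at 0.05, checked on simulated data. Named genes were the Dlx genes, called genes, the 12 separated genes per direction with the smallest p, the 6 with the largest difference at an unadjusted p under 0.05, up to 4 per list and the sex-linked genes; a few list members are named beside them. Members and lists were chosen with earlier results of these data known. Replicates are biological pools per the labels. Alternatives covered filters, probe sets, scaling, moderation, a replicate block, Eif2s3y and each array left out.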

Additional observations from a re-analysis of the deposited data

Results flagged for a closer look

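In 3 of the named genes the groups did not overlap at either stage and lay in opposite order. Klf1, the erythroid factor, differed by 0.96 at E10.5 and -0.36 at E10, so that the E10.5 difference was 1.32 above that of E10 (SE 0.27). Gata2 differed by -0.55 at E10.5 and 0.35 at E10, a contrast of -0.90 (SE 0.24). Ush1c, a scaffold protein of hair cell bundles, differed by -0.53 and 0.96, a contrast of -1.49 (SE 0.52). None of the 3 contrasts passed limma's interaction test over all genes (adjusted p = 1 each).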

How the results depend on the processing

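The count of 1 called gene was 37 with only the 4 E10.5 arrays in the fit, 0 with the lowest 50% of genes left out, 0 with the mean of all probe sets (adjusted p of Dkk1 0.0626), 2 with a trended robust moderation (Dkk1 and Irs4), 11 with the replicate block (Dkk1, Ceacam1, Col14a1, Col5a3, Eci3, Hba-x, Irs4, Lypd6, Nrp2, Pof1b and Vwc2, with adjusted p of 0.0148 to 0.0434), and 0 to 4 with 1 array left out. Numbers were not taken as pairs: deviations of same-numbered arrays correlated at 0.707 at E10 and 0.067 at E10.5. Genes at an unadjusted p under 0.05 numbered 403, against 1617 with only the E10.5 arrays, 949 with probe sets tested singly, 1315 with the replicate block, 665 with the Eif2s3y level as a covariate (416 higher, 249 lower) and 155 to 547 with 1 array left out. For the interaction they numbered 269, against 739 with probe sets singly, 451 after quantile normalization, 1392 with the replicate block, 424 with Eif2s3y and 98 to 1162 with 1 array left out; calls were 0 in every setting run. Separated genes numbered 107 higher and 367 lower, against 68 and 228 with the lowest 50% left out, 246 and 806 with probe sets singly and 71 and 225 with the mean of probe sets.

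List medians moved as follows. With no filter on dim genes they were 0.58 for erythroid genes, -0.063 for interferon genes and -0.08 for Wnt antagonists. With the mean of all probe sets they were -0.32 for BMP response genes and -0.11 for interferon genes. After quantile normalization they were -0.20 for BMP response genes, -0.059 for Wnt antagonists, -0.12 for interferon genes and -0.054 for collagens, and the median of all genes was 0.02. With 1 array left out the ranges were -0.27 to 0.00 for BMP receptors and inhibitors, -0.28 to -0.10 for Wnt antagonists, 0.033 to 0.163 for neurogenesis regulators, 0.65 to 0.80 for erythroid genes, -0.23 to -0.14 for interferon genes, -0.36 to -0.16 for epithelial genes and -0.282 to -0.083 for collagens. With Eif2s3y as a covariate the sign turned for Dlx4 (-0.19), Gata3 (0.009), Bmper (0.24), Gbx2 (0.031), Aldh1a2 (0.59), Krt7 (0.10), Xist (2.47) and Kdm6a (0.34), and with 1 array left out for Kdm6a (-0.45 to 0.20) and Ddx3x (-0.02 to 0.44). The cause of these shifts was not tested.

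With 2 arrays per group and no signal over background, small differences in dim genes were not detectable. No scan dates were used here, so batches of scanning were not tested.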

Other observations

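Several separated genes outside the lists were looked up after their values were seen and are given as values with no test. Among the lower ones, Nrp2 was at 9.71 and 9.69 in wild type against 8.19 and 8.09 in the labelled null, Unc5c at 10.10 and 10.13 against 9.45 and 9.49, Slit2 at 8.54 and 8.73 against 8.19 and 7.93, Plxna2 at 6.65 and 6.74 against 6.14 and 5.75, and Epha4 at 6.38 and 6.42 against 5.79 and 5.21. All 5 had lower values at E10 too, by 0.22 to 0.81. The R-spondins, secreted enhancers of Wnt signalling, were lower beside the Wnt antagonists, with Rspo3 at 6.48 and 6.48 against 5.72 and 5.16 and Rspo2 at 6.42 and 6.80 against 6.08 and 5.43. Fras1 (6.99 and 7.30 against 6.44 and 5.82) and Frem2 (8.17 and 8.12 against 7.61 and 7.27), partners in a basement membrane complex, and Tgfb2 (8.98 and 8.99 against 7.91 and 7.55) were lower as well.

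The adult-type globin Hba-a2 went the other way from the embryonic globins of the red cell list, with 8.19 and 8.03 in wild type against 7.77 and 6.79 in the labelled null. Among the higher genes, Akap9 had 9.74 and 9.91 against 10.61 and 10.47, Pcm1 9.10 and 8.96 against 9.75 and 9.43, and Ktn1 9.53 and 9.62 against 10.36 and 10.08. The E10 levels of Ktn1 were 10.86 and 10.88 in wild type against 10.92 and 10.89 in the labelled null. Pf4, a platelet chemokine, was at 7.49 and 7.79 against 8.37 and 8.59.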
